A study of Vitis vinifera with 36 samples.

Results

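The 8 genes described here are the grapevine genes annotated as flavonoid 3′-hydroxylase (F3′H, 2 genes) and flavonoid 3′,5′-hydroxylase (F3′5′H, 6 genes) in the supplementary gene list of the study, out of 28441 genes with a value in at least 1 library. They were chosen by annotation, with earlier results of these data known. The paper names the same 8 genes as upregulated in winter berries around veraison, so counts of calls among them are not independent of it. Both enzymes are cytochrome P450 proteins that add hydroxyl groups to the B-ring of flavonoids. F3′H adds a hydroxyl at the 3′ position and leads to cyanidin-type anthocyanins and quercetin-type flavonols. F3′5′H adds hydroxyls at the 3′ and 5′ positions and leads to myricetin-type flavonols and delphinidin-type anthocyanins, among them malvidin, the main pigment aglycone of many red grapes. White cultivars make no anthocyanins in the berry skin, but they still make F3′H-dependent flavonols and flavan-3-ols.

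The study sequenced RNA of berries from vines that were cropped in summer and again in winter. The white cultivar Riesling and the red cultivar Cabernet Sauvignon (CS) were each sampled from the winter and the summer crop, at E-L 35 (onset of ripening), E-L 36 (intermediate ripening) and E-L 38 (harvest). This gave 12 conditions of 3 libraries, 36 in all. All vines were grafted on SO4 rootstock, grew under a rain shelter in southern China and were forced with hydrogen cyanamide in both crops. Each library came from the pooled, deseeded pericarp of a sample of berries, so skin and pulp were measured together, and in such a sample fewer cells of a type and less RNA per cell cannot be told apart.

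The total expected count was 8367013 to 28686956 per library (median 10966200). FPKM, the unit of the levels below, is the authors' read number scaled to transcript length and library reads. A level of 3 counts, used here as the detection floor, is 0.105 to 0.359 CPM (counts scaled to the library total) here, for counting error only. The anthocyanin marker 3AT (anthocyanin acyltransferase) was at 0 to 0.49 FPKM in the 18 Riesling libraries, against 10.54 to 60.04 FPKM in the 18 CS libraries. UFGT, the glucosyltransferase that stabilises anthocyanins, was at 7.1 to 10.76 FPKM in Riesling, against 22.03 to 130.43 FPKM in CS. MYBA1 (VIT_202s0033g00410), a regulator of UFGT, was at 0 to 0.89 FPKM in Riesling, against 2.98 to 21.45 FPKM in CS. The level of another model annotated MYBA1 (VIT_202s0033g00380) is not given here. MYBA2, by contrast, was at 0.33 to 91.54 FPKM in Riesling, against 21.87 to 161.21 FPKM in CS. The stage labels were checked with a ripening index, which sets 148 genes that rose during ripening against 624 genes that fell, chosen from CS summer, CS winter and Riesling winter (mean z-score of the first set less that of the second). This index stood at -0.55 ± 0.08 (SD, n = 3) in Riesling summer labelled E-L 38, below the 0.33 ± 0.33 (SD, n = 3) of Riesling summer E-L 36 and far below the 2.46 ± 0.14 (SD, n = 3) of Riesling winter E-L 38. The E-L 38 values of the series from which the genes were chosen are high through that choice. The comparison within Riesling summer is free of it. By that comparison, the Riesling summer libraries labelled E-L 38 go against their label. Season and cultivar results that rest on them are also given with Riesling summer E-L 36 in their place, an alternative added after seeing the data. That condition is not matched for stage with E-L 38, where CS summer stood at 1.57 ± 0.17 (SD, n = 3). The replaced comparisons therefore mix season or cultivar with ripening stage. Riesling winter E-L 36 stood at -0.49 ± 0.09 (SD, n = 3). An exchange of the Riesling summer labels E-L 36 and E-L 38 was not tested, so results on Riesling summer E-L 36 carry that limit too.

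In the deposited gene models (grapevine genome 12X V2), the F3′H gene VIT_203s0063g01690 lies on chromosome 3 from 5037094 to 5039672, on the plus strand. It has 2 exons and a reading frame of 527 codons. The F3′H gene VIT_209s0002g01090 lies on chromosome 9 from 829306 to 832222, on the plus strand, with 2 exons and 511 codons. The 6 F3′5′H genes all lie on the plus strand of chromosome 6, between 15670201 and 16050400, a stretch of 380200 bases that holds 19 gene models. VIT_206s0009g02840 (15718264 to 15720492) and VIT_206s0009g02970 (16008909 to 16011102) have a reading frame of 508 codons each, close to that of the F3′H genes. The other F3′5′H models are shorter, with 252 codons in VIT_206s0009g02810 (15670201 to 15671940), 306 in VIT_206s0009g02830 (15714613 to 15715979), 155 in VIT_206s0009g03000 (16048244 to 16048721) and 253 in VIT_206s0009g03010 (16048722 to 16050400). VIT_206s0009g03000 has 1 exon of 478 bases, and VIT_206s0009g03010 begins at the base after its end. The expected counts of VIT_203s0063g01690 and of the F3′5′H genes were mostly fractional, as they are where reads are divided between similar sequences, whereas those of VIT_209s0002g01090 were whole numbers in 36 of 36 libraries. The values of VIT_203s0063g01690 and of single F3′5′H copies are therefore uncertain. A division among the 6 F3′5′H copies leaves their summed count the same but not their summed FPKM, since the models are 478 to 1826 bases long.

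Of the 13 other gene models in the F3′5′H interval, 3 were listed in no library and 4 reached a mean of 1 FPKM in any condition. These were VIT_206s0009g02843, VIT_206s0009g02850, VIT_206s0009g02873 and VIT_206s0009g02980, with highest means of 1.30, 1.46, 1.22 and 2.55 FPKM, all in CS winter. The highest means of the 6 F3′5′H genes were 12.1 to 90.7 FPKM, all in CS winter too.

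**Figure D1:**
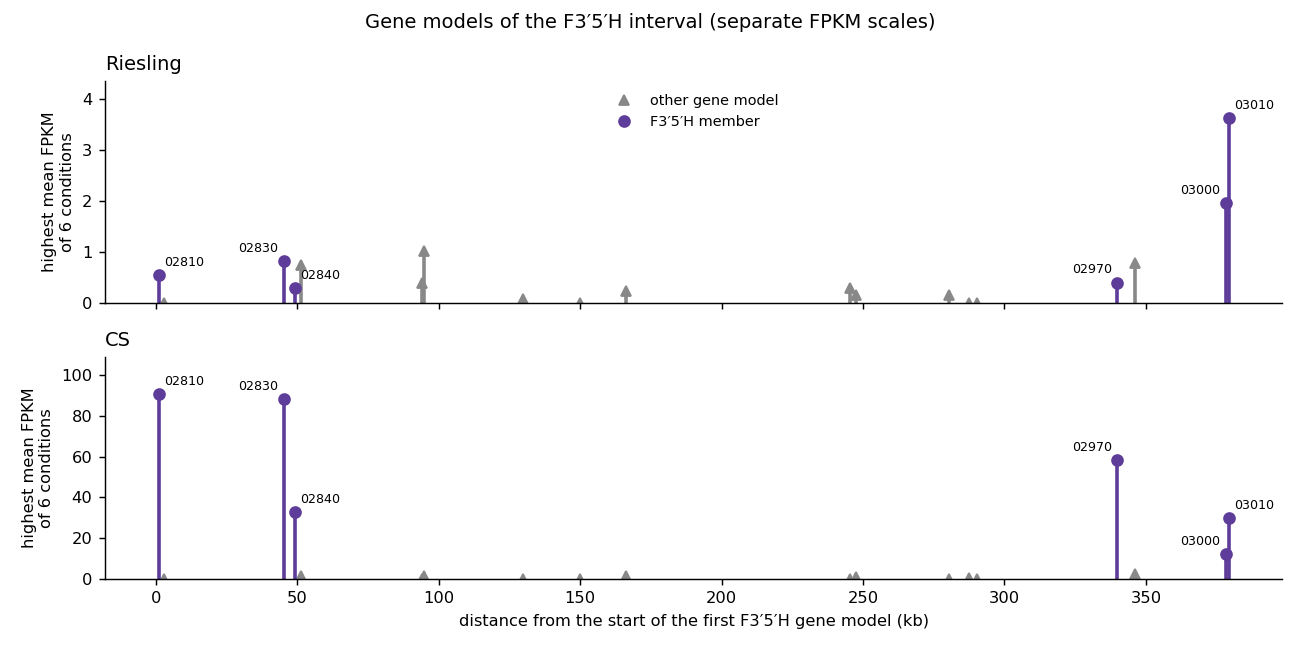
Highest mean FPKM of the 6 conditions of each cultivar (n = 3 libraries per condition) for the 19 gene models of the F3′5′H interval, placed by their distance in kb from the start of the first F3′5′H gene, with Riesling above CS on separate scales (labels give the end of the F3′5′H identifiers). In CS the 6 F3′5′H genes reached 12.1 to 90.7 FPKM, and in Riesling only VIT_206s0009g03000 and VIT_206s0009g03010, at the right end, rose above 1 FPKM among the 6.

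The 2 F3′H genes had more than 3 counts in all 36 libraries, but with different time courses. VIT_203s0063g01690 was highest at E-L 35 of the winter crop. Its FPKM was 17.72, 17.34 and 19.14 in CS winter E-L 35 and 11.84, 11.79 and 15.11 in Riesling winter E-L 35. The next condition was Riesling summer labelled E-L 38, with 5.96, 6.79 and 6.24 FPKM, followed by CS summer E-L 35 with 4.08, 3.88 and 4.64 FPKM and Riesling summer E-L 35 with 2.57, 3.66 and 4.06 FPKM. The first 3 of these conditions did not overlap with their neighbours in the order of levels. From the fourth condition on, each overlapped with the next, down to 0.903 ± 0.24 FPKM in CS winter E-L 38 (SD, n = 3). VIT_209s0002g01090 was highest in CS winter, with 50.56, 39.25 and 44.87 FPKM at E-L 36 and 36.14, 38.04 and 36.53 FPKM at E-L 35. It was lowest in Riesling, with 1.73, 1.24 and 1.12 FPKM in summer labelled E-L 38 and 1.53, 1.53 and 1.39 FPKM in winter E-L 38, and these 2 conditions overlapped. In the order of its levels, gaps without overlap lay between CS winter E-L 36 and CS winter E-L 35, below CS winter E-L 35, between CS summer E-L 36 (12.52 to 13.2 FPKM) and Riesling winter E-L 36 (7.26 to 8.48 FPKM), and below Riesling summer E-L 35 (3.09 to 8.07 FPKM). All other neighbours overlapped. In CS, VIT_209s0002g01090 made up 65.6% to 98.8% of the summed F3′H FPKM of a library. In Riesling its share was 38.9% to 78.6%, except in the summer libraries labelled E-L 38, where it was 15.2% to 22.5%.

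**Figure D2:**
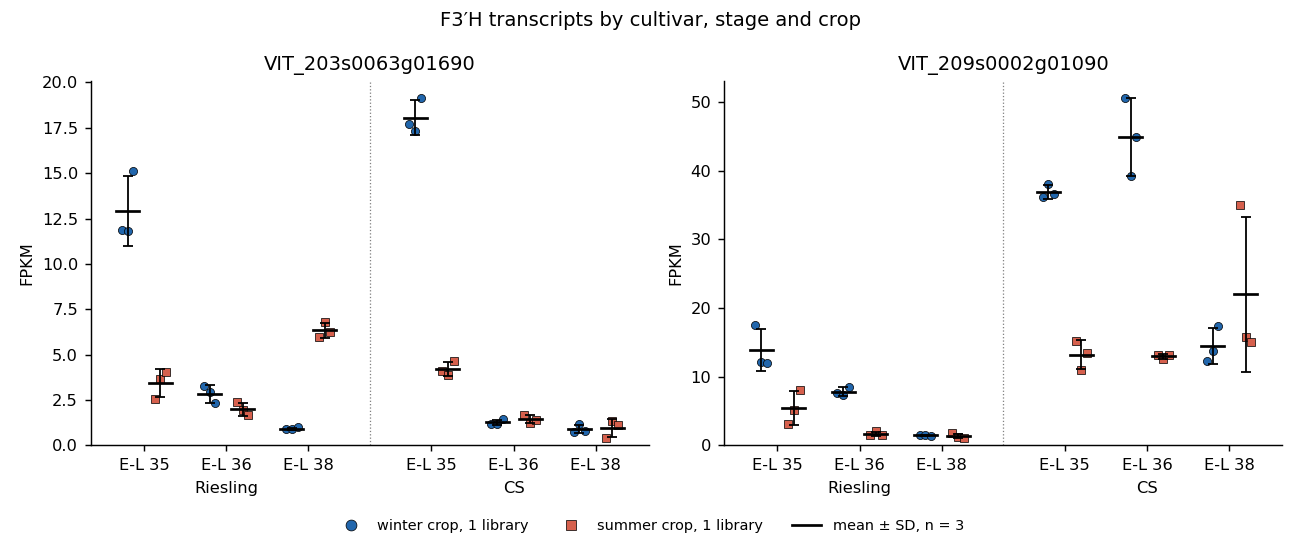
FPKM of the 2 F3′H genes in each of the 36 libraries, by stage, with winter left of summer and Riesling left of CS (bars show the mean ± SD, n = 3). VIT_203s0063g01690 peaked at winter E-L 35 in both cultivars (means of 12.9 in Riesling and 18.1 in CS), and VIT_209s0002g01090 was higher in winter than in summer at the first 2 stages.

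The comparison of winter with summer asked how the levels of these genes differed between the crops at a given stage. Per the paper, the sequenced berries came from the crops of a single year, so each season is a single crop. The p-values measure the spread between berry samples within a crop, and season itself is not replicated. In both cultivars the 2 F3′H genes were higher in winter at E-L 35. From the FPKM given above, the winter libraries of VIT_203s0063g01690 were all above the summer libraries. Its log2 fold change was 2.15 in CS (SE 0.20, edgeR quasi-likelihood test, adjusted p = 3.9e-09). In Riesling it was 1.92 (SE 0.21, adjusted p = 4.6e-08). VIT_209s0002g01090 had 36.14, 38.04 and 36.53 FPKM in CS winter E-L 35, against 15.23, 11.03 and 13.39 FPKM in CS summer E-L 35 (log2 fold change 1.52, SE 0.24, adjusted p = 1.7e-05). In Riesling E-L 35 it had 17.48, 12.2 and 11.98 FPKM in winter, against 3.09, 5.13 and 8.07 FPKM in summer (log2 fold change 1.40, SE 0.26, adjusted p = 0.000134). All winter libraries were again above all summer libraries. These calls held without each of the 6 libraries in turn, and that of VIT_209s0002g01090 in Riesling was lost in a fit of only the libraries compared. A call means an adjusted p not above 0.01 together with a 2-fold change or more in either direction.

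At E-L 36 the 2 F3′H genes parted. VIT_209s0002g01090 was still higher in winter, with 50.56, 39.25 and 44.87 FPKM in CS winter, against 13.13, 12.52 and 13.2 FPKM in CS summer (log2 fold change 1.94, SE 0.25, adjusted p = 4.8e-07). In Riesling it had 7.66, 7.26 and 8.48 FPKM in winter, against 1.51, 2.02 and 1.53 FPKM in summer (log2 fold change 2.37, SE 0.29, adjusted p = 5.8e-07). VIT_203s0063g01690 had 1.2, 1.19 and 1.43 FPKM in CS winter E-L 36, against 1.68, 1.24 and 1.4 FPKM in CS summer E-L 36, and the groups overlapped (log2 fold change -0.02, SE 0.23, adjusted p = 0.959). In Riesling its levels at E-L 36 were 3.27, 2.94 and 2.31 FPKM in winter and 2.37, 1.92 and 1.65 FPKM in summer (log2 fold change 0.68, SE 0.21, adjusted p = 0.0166), which missed both limits. The season effect of VIT_203s0063g01690 in CS was smaller at E-L 36 than at E-L 35 (difference -2.17 on the log2 scale, SE 0.31, adjusted p = 5.4e-06), where 16.6% of all tested genes were called. In Riesling the same difference was -1.24 (SE 0.30, adjusted p = 0.00175, 21.7% of all tested genes called), and it missed the limit without Riesling summer E-L 35 replicate 1, without Riesling winter E-L 36 replicate 3 and in a fit of only the libraries compared. For VIT_209s0002g01090 the same difference was 0.97 in Riesling (SE 0.39, adjusted p = 0.0527) and 0.42 in CS (SE 0.34, adjusted p = 0.388), neither of them called. These tests between stages used the adjusted p alone and were added after the season effects had been seen. The Riesling results at E-L 36 rest on summer libraries for which an exchange of stage labels was not tested.

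At E-L 38 no F3′H gene was called in CS by edgeR, DESeq2 or limma, and 1 had an unadjusted p under 0.05. VIT_209s0002g01090 had 12.33, 13.8 and 17.41 FPKM in CS winter E-L 38, against 34.98, 15.84 and 15.06 FPKM in CS summer E-L 38, with an overlap (log2 fold change -0.64, SE 0.24, adjusted p = 0.0312). Its season effect at E-L 38 was lower than that at E-L 36, with a difference of -2.58 in CS (SE 0.35, adjusted p = 3.0e-06), where 17.5% of all tested genes were called. In Riesling the difference was -2.20 (SE 0.47, adjusted p = 0.000258), where 40.8% were called, and it rests on the summer libraries that go against their label. In CS this call held without each of the 12 libraries in turn. In Riesling, VIT_203s0063g01690 was lower in winter, with 0.88, 0.89 and 0.99 FPKM, against 5.96, 6.79 and 6.24 FPKM in the summer libraries labelled E-L 38 (log2 fold change -2.74, SE 0.24, adjusted p = 9.3e-11). Since those summer libraries go against their label, the winter E-L 38 libraries were also set against Riesling summer E-L 36 (2.37, 1.92 and 1.65 FPKM). This gave -0.98 (SE 0.24, adjusted p = 0.0016), just short of the fold limit. The level of 5.96 to 6.79 FPKM was above all Riesling summer libraries of E-L 35 and E-L 36. The part of the stage label in this result was not tested. The season effect of VIT_203s0063g01690 at E-L 38 was lower in Riesling than in CS by a difference of -2.70 (SE 0.35, adjusted p = 3.4e-06, 13.4% of all tested genes called). With Riesling summer E-L 36 in place of those libraries the difference was -0.94 (SE 0.36, adjusted p = 0.059) and was not called. Both replacements mix season with ripening stage (index of 0.33 in Riesling summer E-L 36, against 2.46 in Riesling winter E-L 38).

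The 6 F3′5′H genes were highest in CS winter at E-L 36 by their means, in each case. At that stage all 6 were higher in winter. VIT_206s0009g02810 had 68.33, 113.96 and 89.67 FPKM in CS winter E-L 36, against 21.85, 18.03 and 24.18 FPKM in CS summer E-L 36 (log2 fold change 2.24, SE 0.38, adjusted p = 4.7e-05). VIT_206s0009g02830 had 57.75, 111.56 and 94.75 FPKM in winter, against 29.08, 28.4 and 27.35 FPKM in summer (1.79, SE 0.37, adjusted p = 0.000429). The 2 copies with the long reading frame behaved in the same way. VIT_206s0009g02840 had 20.63, 41.15 and 36.03 FPKM in winter, against 6.13, 5.82 and 7.68 FPKM in summer (log2 fold change 2.47, SE 0.41, adjusted p = 8.1e-05). VIT_206s0009g02970 had 47.49, 68.79 and 58.21 FPKM in winter, against 14.25, 12.31 and 14.9 FPKM in summer (2.22, SE 0.38, adjusted p = 0.000114). The adjoining models VIT_206s0009g03000 and VIT_206s0009g03010 had the largest fold changes of the 6. VIT_206s0009g03000 had 7.56, 16.39 and 12.23 FPKM in winter, against 2.21, 1.97 and 1.02 FPKM in summer (2.94, SE 0.65, adjusted p = 0.000727). VIT_206s0009g03010 had 21.05, 33.94 and 33.78 FPKM in winter, against 4.75, 4.72 and 4.52 FPKM in summer (2.81, SE 0.57, adjusted p = 0.000301).

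For all 6 F3′5′H genes every winter library of E-L 36 was above every summer library, and each call held without each of the 6 libraries in turn. How many of all tested genes separated in this way was not counted, here or in the other comparisons, so such separations are a description. With limma on log2(FPKM + 0.1), VIT_206s0009g02810 and VIT_206s0009g02830 were not called there. With VIT_209s0002g01090, 7 of the 8 genes were called at CS E-L 36, all higher in winter, against 12.3% of the 20183 genes tested. The median log2 fold change of the 6 F3′5′H genes was 2.35 there, and that of all tested genes was -0.01. The copies share a location and may share reads, so they are not independent evidence of each other.

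At CS E-L 35, 5 of the 8 genes were called, all higher in winter, against 10.4% of all tested genes. Beside the 2 F3′H genes these were VIT_206s0009g02830, VIT_206s0009g02840 and VIT_206s0009g02970. VIT_206s0009g02830 had 54.76, 55.19 and 52.05 FPKM in winter, against 16.91, 18.92 and 19.09 FPKM in summer (log2 fold change 1.61, SE 0.37, adjusted p = 0.00133). VIT_206s0009g02840 had 15.47, 20.68 and 13.84 FPKM in winter, against 3.38, 5.71 and 6.38 FPKM in summer (1.75, SE 0.41, adjusted p = 0.00204). VIT_206s0009g02970 had 23.34, 27.07 and 27.69 FPKM in winter, against 9.22, 12.26 and 11.15 FPKM in summer (1.32, SE 0.38, adjusted p = 0.00936). The groups did not overlap for these 3 copies. The call of VIT_206s0009g02840 was lost without CS summer E-L 35 replicate 1 or CS winter E-L 35 replicate 2, and that of VIT_206s0009g02970 was lost without any 1 of the 6 libraries, so it lies at the limit. VIT_206s0009g02810 (log2 fold change 1.24, SE 0.38, adjusted p = 0.0114) and VIT_206s0009g03010 (1.32, SE 0.56, adjusted p = 0.0626) missed the limit although their winter libraries were all above their summer libraries. Only VIT_206s0009g03000 overlapped between the seasons, with 3.18, 1.46 and 2.85 FPKM in winter and 0.3, 0.61 and 2.82 FPKM in summer. No F3′5′H gene had a season effect called as different between these stages in CS by edgeR, DESeq2 or limma, and 1 of 6 had an unadjusted p under 0.05.

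At CS E-L 38, 4 of the 8 genes were called, all higher in winter, against 17.2% of all tested genes. These were VIT_206s0009g02810, VIT_206s0009g02840, VIT_206s0009g02970 and VIT_206s0009g03000. VIT_206s0009g02840 had 28.6, 14.4 and 14.59 FPKM in winter, against 1.79, 9.59 and 5.95 FPKM in summer (log2 fold change 1.68, SE 0.42, adjusted p = 0.0022). The other 3 had log2 fold changes of 1.43 to 2.00, with adjusted p-values of 0.00203 to 0.00969. VIT_206s0009g02830 and VIT_206s0009g03010 had log2 fold changes of 0.90 and 1.19 and were not called. None of the 8 genes was called without CS summer E-L 38 replicate 1, and none without CS winter E-L 38 replicate 1, and the call of VIT_206s0009g03000 held only without CS winter E-L 38 replicate 3. The summer library had the lowest level of each of the 6 copies in its condition (summed F3′5′H of 19.73 FPKM, against 90.62 and 88.54 FPKM in the other 2), together with the 34.98 FPKM of VIT_209s0002g01090. The winter library had the highest level of each of them in its condition (250.57 FPKM summed, against 148.39 and 123.41 FPKM in the other 2). Against E-L 36, no F3′5′H gene had a season effect called as different in CS by edgeR, DESeq2 or limma, and 1 of 6 had an unadjusted p under 0.05.

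**Figure D3:**
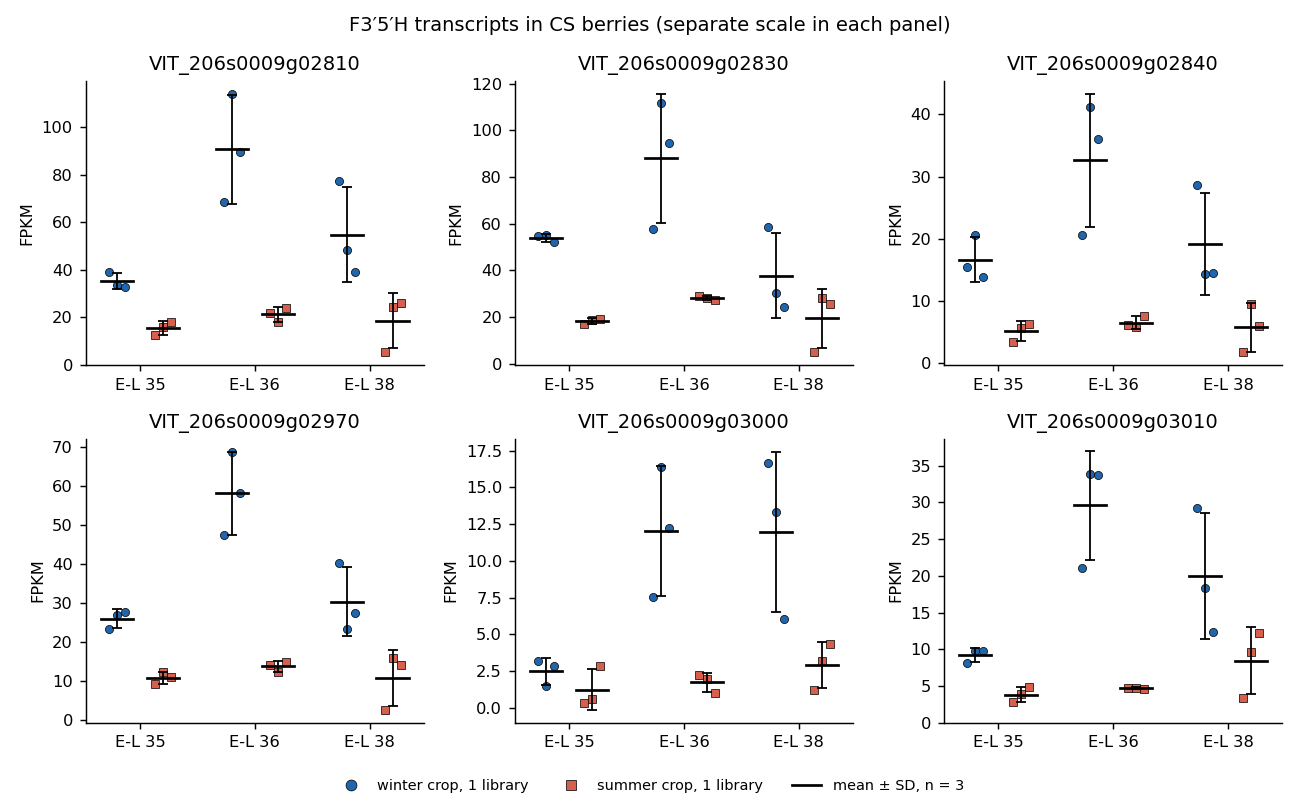
FPKM of the 6 F3′5′H genes in each of the 18 CS libraries, by stage, with winter left of summer and a separate scale in each panel (bars show the mean ± SD, n = 3). At E-L 36 all winter libraries lie above all summer libraries in each panel, and at E-L 38 1 summer library (replicate 1) is the lowest and 1 winter library (replicate 1) the highest in each panel.

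Across the stages of CS winter, 4 of the 6 F3′5′H genes were higher at E-L 36 than at the onset. These were VIT_206s0009g02810 (log2 fold change 1.52, SE 0.37, adjusted p = 0.00218), VIT_206s0009g02970 (1.32, SE 0.37, adjusted p = 0.00819), VIT_206s0009g03000 (2.38, SE 0.62, adjusted p = 0.00363) and VIT_206s0009g03010 (1.85, SE 0.54, adjusted p = 0.00845). DESeq2 called 2 of the 6 copies in this step, and limma called 4 on log2(FPKM + 1) and 0 on log2(FPKM + 0.1). With a library left out, the 4 edgeR calls named above held in 3, 0, 1 and 1 of 6 cases, in the order named. That of VIT_206s0009g02810 was lost without CS winter E-L 35 replicate 2 or 3 or CS winter E-L 36 replicate 2, and those of VIT_206s0009g03000 and VIT_206s0009g03010 held only without CS winter E-L 36 replicate 1. Over the same interval VIT_203s0063g01690 fell by 3.65 on the log2 scale (log2 fold change -3.65, SE 0.22, adjusted p = 3.6e-12). In total 5 of the 8 genes were called, against 9.39% of all tested genes. From E-L 36 to E-L 38 of CS winter, VIT_209s0002g01090 was lower (-1.79, SE 0.24, adjusted p = 7.7e-07), as was VIT_206s0009g02830 (-1.40, SE 0.37, adjusted p = 0.0027), whose groups overlapped and whose call was lost without replicate 2 or 3 of either stage. These were 2 of the 8 genes, against 15.9% of all tested genes. In that step limma on log2(FPKM + 0.1) called 0 of the 6 F3′5′H genes.

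In CS summer no F3′5′H gene was called between E-L 36 and E-L 35, where 6.51% of all tested genes were, or between E-L 38 and E-L 36, where 2.41% were. This held in edgeR, DESeq2 and limma, with 0 of 6 genes at an unadjusted p under 0.05 in either step. The only call among the 8 genes was that of VIT_203s0063g01690, lower at E-L 36 than at the onset (log2 fold change -1.48, SE 0.22, adjusted p = 1.7e-05). In Riesling winter VIT_203s0063g01690 was again lower at E-L 36 (-2.02, SE 0.21, adjusted p = 2.5e-08, 10.1% of all tested genes called), and VIT_206s0009g03010 was at least 9.05-fold lower there than at E-L 35, with 0 counts in all 3 libraries. From E-L 36 to E-L 38 of Riesling winter both F3′H genes were lower, VIT_203s0063g01690 with a log2 fold change of -1.66 and VIT_209s0002g01090 with -2.41 (adjusted p = 2.4e-06 and 2.8e-07), where 18.9% were called. In Riesling summer VIT_209s0002g01090 was lower at E-L 36 (-1.65, SE 0.29, adjusted p = 6.9e-05, 10.2% called). In a fit of only the libraries compared, 41 genes were called in that step, against 2060 here. VIT_206s0009g03010 was lower there as well (-5.05, SE 0.97, adjusted p = 0.000201), with VIT_206s0009g03000 at least 4.78-fold lower than at E-L 35. The F3′5′H folds of both Riesling crops set levels at or near the floor against E-L 35 means raised by replicate 3. For VIT_206s0009g03010 replicate 3 of E-L 35 had 8.17 FPKM in summer (median 1.86) and 4.33 FPKM in winter (median 0.97). These folds are given as a description. VIT_203s0063g01690 was higher in the libraries labelled E-L 38 than in those of E-L 36 (1.76, SE 0.21, adjusted p = 1.9e-07, 11.9% called), which rests on the libraries that go against their label.

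In Riesling the F3′5′H genes were near the detection floor. A value listed at 0 allows up to 3 counts. At E-L 36 as well as E-L 38 the expected counts of all 6 copies together came to 0 to 7.9 per library, against 246.6 to 9605.2 in CS. VIT_206s0009g02840 and VIT_206s0009g02970 were at 0 in all 12 of these Riesling libraries. At E-L 35 the summed count was 38.7 to 74.7 in Riesling winter and 37.0 to 126.1 in Riesling summer. VIT_206s0009g03010, the highest of the 6 by its mean in both crops, had 0.97, 0.54 and 4.33 FPKM in Riesling winter E-L 35 and 0.86, 1.86 and 8.17 FPKM in Riesling summer E-L 35, so replicate 3 was the highest of its condition in both crops. VIT_206s0009g03000 had 1.06, 0.1 and 0.83 FPKM in winter and 0.98, 0.72 and 4.17 FPKM in summer, and VIT_206s0009g02830 had 0.99, 1.1 and 0.37 FPKM in winter and 0.53, 0.72 and 0.57 FPKM in summer. The seasons overlapped for all 6 copies. No F3′5′H gene was called between the seasons at Riesling E-L 35 by edgeR, DESeq2 or limma, with 0 of 6 at an unadjusted p under 0.05. The 2 calls there, both F3′H genes, stand against 10.0% of all tested genes. At Riesling E-L 36, VIT_209s0002g01090 was the only member called, against 7.13% of all tested genes. Of the F3′5′H genes 0 were called by edgeR or limma and 1 by DESeq2. VIT_206s0009g02810 had an unadjusted p of 0.0391 there, with 0.52, 0 and 0.21 FPKM in winter, against 0 in the 3 summer libraries. At Riesling E-L 38 VIT_203s0063g01690 was the only member called, against 27.9%, and no F3′5′H gene was called by edgeR, DESeq2 or limma or had an unadjusted p under 0.05.

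**Figure D4:**
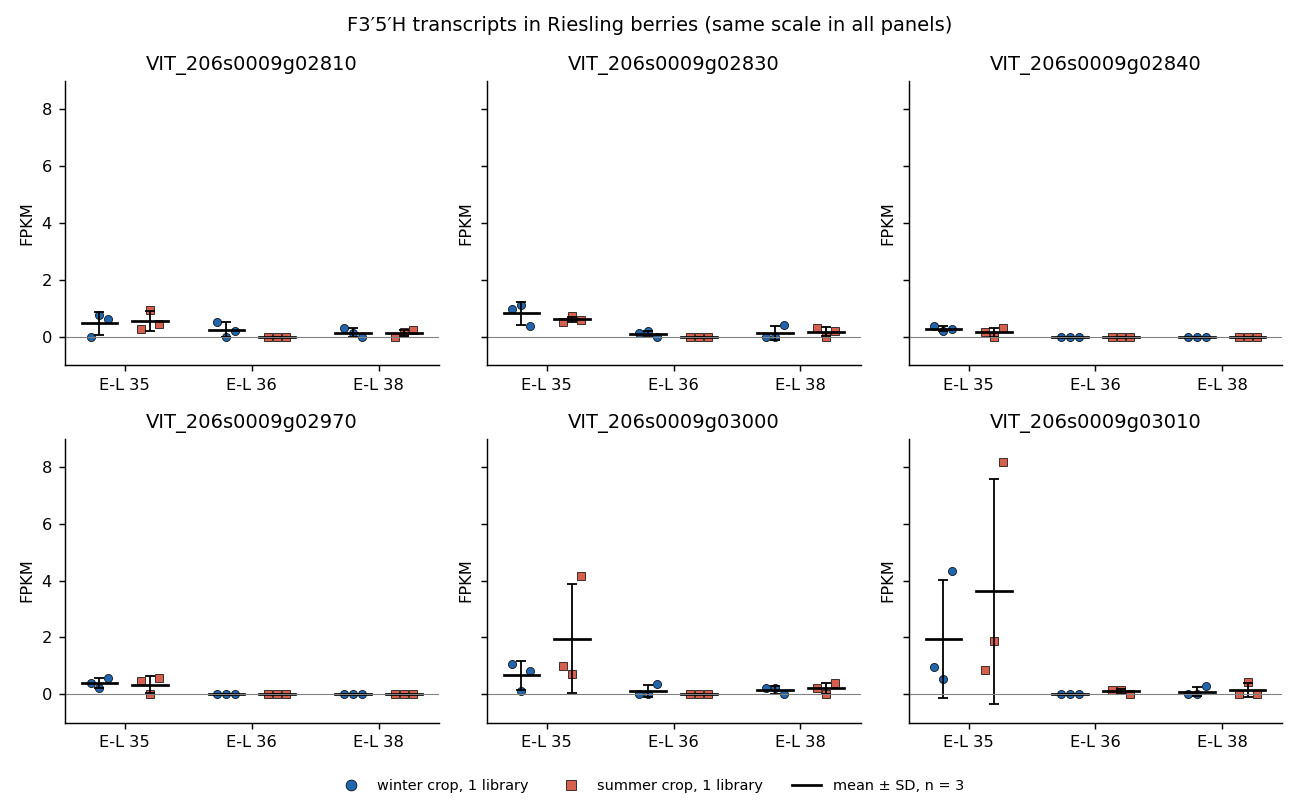
FPKM of the 6 F3′5′H genes in each of the 18 Riesling libraries, by stage, with winter left of summer and the same scale in all panels (bars show the mean ± SD, n = 3). The highest values are those of VIT_206s0009g03010 at E-L 35 (up to 4.33 FPKM in winter and 8.17 FPKM in summer) and of VIT_206s0009g03000 in 1 summer library of that stage (4.17 FPKM).

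The comparison of Riesling with CS set the cultivars side by side in each season and stage. All 6 F3′5′H genes passed the filter on low counts through their CS libraries, so their calls and fold changes between the cultivars are given as a description. At both later stages all 6 were lower in Riesling in both seasons. Where no Riesling library had more than 3 counts, only a lower bound of the fold can be given. VIT_206s0009g02970 was at least 378-fold lower in Riesling than in CS at winter E-L 36 (0 FPKM in the 3 Riesling libraries, against 47.49 to 68.79 FPKM in CS) and at least 133-fold lower at summer E-L 36. VIT_206s0009g02840 was at least 218-fold lower at winter E-L 36 and at least 64.9-fold lower at summer E-L 36. For VIT_206s0009g03000, which has the lowest counts, the bound was 19.9-fold at winter E-L 36 and 4.24-fold at summer E-L 36. With the F3′H gene VIT_209s0002g01090, 7 of the 8 genes were called at winter E-L 36 (13.6% of all tested genes called), 7 at winter E-L 38 (12.1%) and 7 at summer E-L 36 (16.9%), all lower in Riesling. At summer E-L 38 all 8 were called (19.1%), VIT_203s0063g01690 being higher in the Riesling libraries that go against their label (log2 fold change 2.63, SE 0.24, adjusted p = 6.8e-10). With Riesling summer E-L 36 in their place it was 0.87 (SE 0.25, adjusted p = 0.0055), under the fold limit but not matched for stage.

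At E-L 35 the copies differed in how far apart the cultivars were. In summer, VIT_206s0009g02810, VIT_206s0009g02830, VIT_206s0009g02840 and VIT_206s0009g02970 were lower in Riesling, with log2 fold changes of -5.16 to -4.88. For VIT_206s0009g03000 the Riesling libraries had 0.98, 0.72 and 4.17 FPKM, against 0.3, 0.61 and 2.82 FPKM in CS, and the log2 fold change was 0.34 (SE 0.71). For VIT_206s0009g03010 the Riesling libraries had 0.86, 1.86 and 8.17 FPKM, against 2.75, 3.87 and 4.8 FPKM in CS (log2 fold change -0.25, SE 0.59). For these adjoining models the cultivars overlapped, and the difference between the copies in their cultivar effect was itself not tested. In winter E-L 35 the first 4 copies had log2 fold changes of -6.44 to -6.07. VIT_206s0009g03010 had -2.48 (SE 0.63), a call lost without Riesling winter E-L 35 replicate 1 or replicate 2, and VIT_206s0009g03000 had -2.09 (SE 0.82) and was not called. Of the 8 genes, 6 were called at winter E-L 35 and 5 at summer E-L 35, where 14.6% and 11.6% of all tested genes were called, in this order. Of these calls, 5 in winter and 4 in summer were F3′5′H genes. These copies passed the filter through their CS libraries and may share reads, so the counts are a description.

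VIT_209s0002g01090 was lower in Riesling in all 6 comparisons of the cultivars, with log2 fold changes of -1.56, -2.68 and -3.30 in winter (stages E-L 35, 36 and 38, SE 0.25, 0.26 and 0.30), at adjusted p-values from 1.8e-09 to 1.1e-05. In summer the log2 fold changes were -1.44, -3.12 and -4.12 for the same stages (SE 0.26, 0.28 and 0.31), at adjusted p-values from 1.6e-11 to 8.1e-05. With Riesling summer E-L 36 in place of the libraries that go against their label, the last became -3.90, again not matched for stage. VIT_203s0063g01690 showed no such pattern. Outside summer E-L 38 it was called in none of the 5 comparisons by edgeR or DESeq2, with log2 fold changes of -0.66 to 0.97, although 3 of the 5 had an unadjusted p under 0.05. By limma on log2(FPKM + 0.1) it was called at winter E-L 36, where its edgeR adjusted p was 0.00103 with a log2 fold change of 0.97 (SE 0.22), just short of the fold limit. At E-L 35 the season effects of the cultivars were called as different for 0 of the 8 genes, by edgeR, DESeq2 or limma, with 2 at an unadjusted p under 0.05 and 1.53% of all tested genes called. At E-L 36 the same held for the F3′H genes in all 3 tools, with 1 of 2 at an unadjusted p under 0.05 and 11.7% of all tested genes called. No F3′5′H difference is given there, since all 6 copies had a Riesling condition at the floor.

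The summed FPKM of the 6 F3′5′H genes, divided by that of the 2 F3′H genes of the same library, describes which branch the transcripts favoured. In CS this ratio was above 1 in 17 of 18 libraries, and in Riesling it was below 1 in 17 of 18. In CS winter E-L 35 it was 2.68, 2.67 and 2.5, against 2.33, 3.86 and 3.45 in CS summer E-L 35. In CS winter E-L 36 it was 4.3, 9.54 and 7.01, against 5.28, 5.18 and 5.46 in CS summer E-L 36. The seasons overlapped at both stages, with a winter minus summer difference of the mean log2 ratio of -0.27 at the earlier and 0.32 at the later stage. Both sums were higher in winter. The F3′H sum was 46.2 ± 5.66 FPKM in CS winter E-L 36 and 14.4 ± 0.556 FPKM in CS summer E-L 36 (SD, n = 3 each). The F3′5′H sum was 311 ± 82.3 FPKM in winter and 76.4 ± 4.5 FPKM in summer there (SD, n = 3 each). In CS winter E-L 38 the ratio was 19.2, 9.91 and 6.78, against 0.558, 5.28 and 5.48 in CS summer E-L 38, with no overlap and a difference of 2.11 on the log2 scale. Without summer replicate 1, the library with a ratio of 0.558, the difference was 1.02. In Riesling winter E-L 35 the ratio was 0.129, 0.123 and 0.259, against 0.571, 0.481 and 1.17 in Riesling summer E-L 35, with no overlap, from the low F3′5′H counts given above. The ratio is a score over chosen genes and was not tested.

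**Figure D5:**
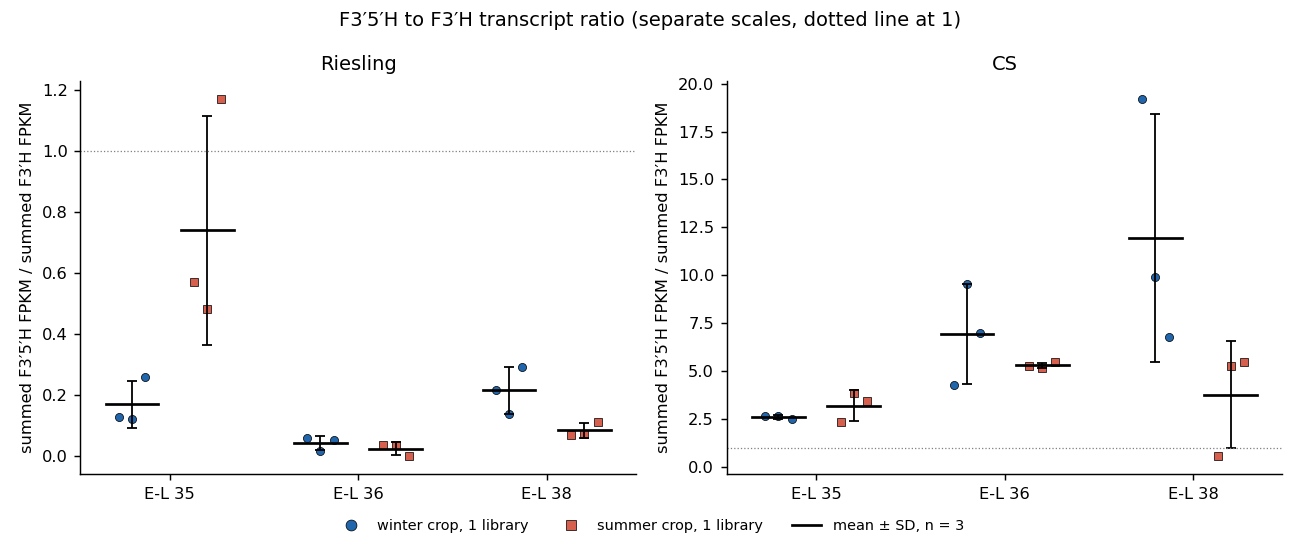
Ratio of the summed FPKM of the 6 F3′5′H genes to that of the 2 F3′H genes in each library, by stage, with winter left of summer, Riesling left of CS and separate scales (bars show the mean ± SD, n = 3, and the dotted line marks 1). In CS the seasons overlap at the first 2 stages but not at E-L 38, where 1 summer library has a ratio of 0.558.

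Within the F3′5′H sum of the 18 CS libraries, the median share was 30.8% for VIT_206s0009g02830, 28.3% for VIT_206s0009g02810, 17.9% for VIT_206s0009g02970, 9.94% for VIT_206s0009g02840, 8.26% for VIT_206s0009g03010 and 3.45% for VIT_206s0009g03000. By mean share VIT_206s0009g02830 led in 4 of the 6 conditions and VIT_206s0009g02810 in the other 2, CS winter E-L 36 and CS winter E-L 38. VIT_206s0009g02810 took 24.6 ± 2.35%, 29.3 ± 1.54% and 31.7 ± 0.932% over the 3 stages of CS winter, and 28.2 ± 0.629%, 27.9 ± 2.53% and 28.3 ± 1.45% over those of CS summer (SD, n = 3 each). Pairs of copies had a Pearson r of 0.675 to 0.98 over the 18 libraries, against 0.26 for the pair of F3′H genes (log2(CPM + 1), a description). VIT_206s0009g02830 took 37.6 ± 0.369% in CS winter E-L 35, 28 ± 1.81% in E-L 36 and 21.2 ± 1.98% in E-L 38 (SD, n = 3 each). The shares were not tested. In summer its share was 33.7 ± 3.52%, 37.1 ± 2.76% and 28.5 ± 2.8% at the same stages (SD, n = 3 each). The adjoining models VIT_206s0009g03000 and VIT_206s0009g03010 together took 8.17 ± 0.797% in CS winter E-L 35, 13.4 ± 0.716% in E-L 36 and 18.1 ± 3.23% in E-L 38, and in summer 8.93 ± 2.91%, 8.41 ± 1.29% and 18.7 ± 4.57% (SD, n = 3 each). In Riesling E-L 35, with few counts, they took 49.6 ± 26.1% in winter and 68.2 ± 16.1% in summer (SD, n = 3 each). The shares depend on how reads were divided between the copies.

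The genes whose pattern was most like that of the summed F3′5′H genes over the 18 CS libraries, by Pearson correlation of log2(CPM + 1), were VIT_206s0004g02620 (PAL, the entry enzyme of the phenylpropanoid pathway, r = 0.951), VIT_205s0136g00260 (CHS3, chalcone synthase, r = 0.95), VIT_204s0079g00690 (r = 0.947), VIT_214s0068g00920 (CHS1, r = 0.939) and VIT_216s0050g00910 (r = 0.937). The pigment regulator MYBA2 ranked 9 among 20153 genes, and the anthocyanin genes 3AT and UFGT ranked 21 and 36. Other pigment genes were spread more widely. The models annotated MYBA1 ranked 42 (VIT_202s0033g00380) and 1518 (VIT_202s0033g00410, r = 0.57), and the AOMT methyltransferase genes ranked 18, 44 and 1155. The 53GT genes, putative glucosyltransferases, ranked 7352 and 9786 (r = 0.151 and -0.006). Upstream of CHS, r ran from 0.483 (VIT_216s0039g01300) to 0.951 in the PAL genes. In the 4CL genes it ran from -0.735 (VIT_206s0061g00450) to 0.805 (VIT_216s0039g02040). The families between CHS and UFGT were split, with r from -0.762 (VIT_202s0025g02960) to 0.899 (VIT_204s0023g03370) in the F3H genes, from -0.743 (VIT_202s0025g01260) to 0.818 (VIT_218s0001g12800) in the DFR genes, and at -0.643 (VIT_208s0105g00380) and 0.847 (VIT_202s0025g04720) in the LDOX genes. Over all 36 libraries VIT_209s0002g01090 was most like VIT_201s0010g03122 (r = 0.914), VIT_209s0002g01040 (r = 0.91), VIT_209s0002g02840 (r = 0.9), VIT_208s0007g06000 (r = 0.897) and VIT_202s0012g00620 (r = 0.893), with CHS3 at rank 14 and the F3H genes at an r of -0.287 (VIT_202s0025g02960) to 0.889 (VIT_204s0023g03370). VIT_203s0063g01690 was most like VIT_214s0108g01560 (r = 0.923), VIT_201s0011g01280 (r = 0.918), VIT_214s0068g01620 (r = 0.916), VIT_202s0154g00250 (r = 0.9) and VIT_206s0004g04110 (r = 0.885). The study annotates none of the last 5, nor the first 5 named for VIT_209s0002g01090. These are descriptions, in which 3 libraries share each condition and the cultivar and season shift many genes at once.

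The other genes of the pathway were counted by the study's annotation. At CS E-L 36, where 6.5% of all tested genes were called higher and 5.82% lower in winter, 15 of 18 phenylpropanoid genes were higher and 0 lower (median log2 fold change 3.73). Of the 9 early flavonoid genes (CHS, CHI and F3H), 5 were higher and 2 lower (median 1.24). Of the 8 DFR and LDOX genes, which act after the hydroxylases, 4 were higher and 2 lower (median 0.92). Of the 7 anthocyanin genes (UFGT, 3AT, AOMT and 53GT, which attach sugar, acyl and methyl groups), 4 were higher and 0 lower (median 1.47), against a median of 2.35 for the F3′5′H genes. The flavonol genes, whose products also carry the B-ring hydroxyls, had 2 of 6 higher and 1 lower (median -1.04), and the flavan-3-ol genes had 1 of 3 higher and 0 lower (median 0.01). At CS E-L 35, where 4.54% of all tested genes were called higher, the counts of higher genes were 7 of 18 phenylpropanoid, 2 of 9 early flavonoid, 2 of 8 DFR and LDOX, 2 of 7 anthocyanin, 0 of 6 flavonol and 1 of 3 flavan-3-ol genes. At CS E-L 38, where 7.29% were called higher, they were 3 of 18, 2 of 9, 1 of 8, 0 of 7, 2 of 6 and 0 of 3, in the same order. The lower genes at CS E-L 35 were 0 of 18, 0 of 9, 2 of 8, 0 of 7, 1 of 6 and 0 of 3, where 5.83% of all tested genes were called lower. At CS E-L 38 they were 0 of 18, 1 of 9, 2 of 8, 0 of 7, 1 of 6 and 0 of 3, where 9.9% were called lower. The median log2 fold change of the DFR and LDOX genes was -0.61 at CS E-L 38.

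In Riesling E-L 35, where 5.54% of all tested genes were called higher in winter, 3 of 18 phenylpropanoid, 4 of 9 early flavonoid, 1 of 8 DFR and LDOX, 2 of 7 anthocyanin, 0 of 6 flavonol and 1 of 3 flavan-3-ol genes were higher. In Riesling E-L 36, where 4.65% were called higher, the counts were 2 of 18, 3 of 9, 1 of 8, 0 of 7, 0 of 6 and 1 of 3. The lower genes at Riesling E-L 35 were 0 of 18, 1 of 9, 1 of 8, 0 of 7, 1 of 6 and 1 of 3, where 4.48% of all tested genes were called lower. At Riesling E-L 36 they were 0 of 18, 1 of 9, 0 of 8, 0 of 7, 2 of 6 and 0 of 3, where 2.48% were called lower. The median log2 fold change of the flavonol genes was -0.95 at Riesling E-L 36. In Riesling E-L 38, against the summer libraries that go against their label, 11.8% were called higher and the counts were 4 of 18, 3 of 9, 2 of 8, 0 of 7, 0 of 6 and 0 of 3. Of the DFR and LDOX genes 4 of 8 were lower there, and of the flavan-3-ol genes 2 of 3, where 16.1% of all tested genes were called lower. The median over all tested genes was between -0.03 and 0.01 in these comparisons.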

How the data were processed

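Per the labels and the paper's methods, single reads were aligned to the 12X V2 grapevine genome (Bowtie in the submitters' processing notes), and the authors deposited for each library an expected count, which is estimated and not normalized, and an FPKM value, scaled by the authors to transcript length and library reads. The counting program and its use of strand are not given in the sources used here. A series table with 36 numbered columns was left out, and the paper's test was DESeq2.

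Expected counts were rounded, filtered with filterByExpr over the 12 conditions (20183 genes, the 8 members included), scaled by TMM and tested by a quasi-likelihood fit of all 36 libraries in edgeR 4.0.16 (R 4.3.3), with Benjamini-Hochberg adjustment over all tested genes. Called genes had an adjusted p not above 0.01 with a 2-fold change or more, and for differences of season effects the adjusted p alone. The SE is the log2 fold change over the square root of F. The 3 replicates of a condition are biological per the paper's methods, each of pooled berries, and p-values measure the spread between them. DESeq2 1.42.0, limma 3.58.1, RLE factors, no filter, subset fits, a replicate block and left-out libraries were alternatives. The fit was tested on simulated data. The members and gene lists were chosen with earlier results of these data known. All 8 members are named, with the 5 genes most alike, and other pathway genes appear as counts. Gene names come from the study's lists, as 0 identifiers matched the reference gene table, and no sequence was used here.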

Additional observations from a re-analysis of the deposited data

Results flagged for a closer look

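A total of 6 differences between season effects passed the test of the difference itself. VIT_203s0063g01690 (F3′H) differed between the cultivars at E-L 38, with a season effect lower in Riesling than in CS by -2.70 on the log2 scale. Its season effect also differed between stages, by -1.24 in Riesling and -2.17 in CS for E-L 36 minus E-L 35 and by -3.42 (SE 0.32, adjusted p = 1.0e-09) in Riesling for E-L 38 minus E-L 36. VIT_209s0002g01090 (F3′H) differed for E-L 38 minus E-L 36, by -2.20 in Riesling and by -2.58 in CS. Of all tested genes, 13.4% were called for the difference between the cultivars at E-L 38. For E-L 36 minus E-L 35 the share was 21.7% in Riesling and 16.6% in CS. For E-L 38 minus E-L 36 it was 40.8% in Riesling and 17.5% in CS. The values -2.70, -3.42 and -2.20 rest on the Riesling summer libraries labelled E-L 38, whose ripening index goes against that label, and with Riesling summer E-L 36 in their place -2.70 became -0.94 (SE 0.36, adjusted p = 0.059). That replacement is not matched for stage. The values -1.24, -3.42 and -2.20 also rest on Riesling summer E-L 36, and an exchange of stage labels was not tested. The tests between stages were added after the data had been seen.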

How the results depend on the processing

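The number of the 8 genes called between the seasons was 5 at CS E-L 35, 7 at CS E-L 36, 4 at CS E-L 38, 2 at Riesling E-L 35 and 1 at each of Riesling E-L 36 and E-L 38. It was 3 at CS E-L 35, 5 at CS E-L 36 and 2 at CS E-L 38 with limma on log2(FPKM + 0.1), and 2 at CS E-L 38 and 2 at Riesling E-L 36 with DESeq2. In a fit of only the libraries compared it was 0 at CS E-L 38 and 1 at Riesling E-L 35, where VIT_209s0002g01090 was lost. With an adjusted p of at most 0.05 and no fold limit it was 2 at Riesling E-L 36. Against the Riesling summer libraries labelled E-L 36, chosen after seeing the data, it was 0 at Riesling E-L 38. With a library left out the number was 3 to 4 at CS E-L 35, 7 at CS E-L 36, 0 to 4 at CS E-L 38, 2 at Riesling E-L 35, 1 at Riesling E-L 36 and 1 at Riesling E-L 38. The winter minus summer difference of the log2 ratio was -0.48 to -0.12, 0.05 to 0.62 and 1.02 to 2.66 at CS E-L 35, E-L 36 and E-L 38 with a library left out. It moved by less than the spread between replicates with summed CPM, without VIT_206s0009g03000 and VIT_206s0009g03010, and with only VIT_209s0002g01090 as F3′H. The deviations of same-numbered replicates had a Pearson r of -0.057 to 0.292, and in no season comparison were all 3 above 0.1. In Riesling E-L 36 they were 0.072, 0.088 and 0.175, and 0 to 4 of the 6 libraries of a comparison correlated best with their own number. With the replicate number as a block, 149 of 150 log2 fold changes kept their side of the limits, and the count at CS E-L 35 was 4, without VIT_206s0009g02970. No called direction was reversed in any alternative. Folds that involve a condition at the floor depend on the prior count and were left out of this count.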
